A study of Homo sapiens with 12 samples.

Results

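The 10 genes described here encode the 5 subunits of Ragulator (LAMTOR1 to LAMTOR5), the 2 MNK kinases (MKNK1 and MKNK2), the cap-binding protein EIF4E and its inhibitors EIF4EBP1 and EIF4EBP2, out of 58174 genes listed in each deposited table. LAMTOR3 and MKNK2 were chosen by the contrast of IGF2BP1 knockdown against control, as they are among the genes the study reports as upregulated, so their values in this contrast are a description and were not tested. The other 8 genes were chosen by the complex or family to which they belong, with earlier results of these data known. The study asked which RNAs depend on the RNA-binding protein IGF2BP1 in cancer cells. Poly-A RNA was sequenced from Hep-G2 cells, a hepatoblastoma line, and from BE(2)-C cells, a neuroblastoma line, 72 h after transfection with control siRNA (siC) or an siRNA pool against IGF2BP1 (siI1). Each of the 4 groups, Hep-G2 siC, Hep-G2 siI1, BE(2)-C siC and BE(2)-C siI1, had 3 libraries, 12 in all, and the methods give a lower siRNA concentration for Hep-G2 than for BE(2)-C. Both are established cell lines. The methods call the replicates biological, but neither they nor the labels say whether these were separate cultures, so p-values here measure only the spread between these libraries.

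Ragulator sits on the lysosomal membrane, where it anchors the Rag GTPases that bring mTORC1 to the lysosome when amino acids are plentiful, and it also holds a scaffold for MEK and ERK. The MNK kinases, activated by ERK and p38, phosphorylate EIF4E, which binds the cap of mRNAs and recruits the translation machinery. EIF4EBP1 and EIF4EBP2 bind and inhibit EIF4E until mTORC1 phosphorylates them, so these genes lie on routes that join nutrient and MAP kinase signals to translation.

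The libraries held 12852988 to 15721210 reads on genes (median 13896544). Values are FPKM, reads per gene length and library size, on library sizes scaled by the authors within each cell line. Fold changes are differences of log2(FPKM + 0.1), a scale that understates the change of genes with low FPKM. The limma fit of each line took genes reaching 0.1 FPKM in 3 or more of its libraries, the 10 members among them, and calls were made at an adjusted p under 0.05. Exact permutation of 3 against 3 libraries has a smallest two-sided p of 0.1, so single genes rest on the fit across all genes.

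IGF2BP1 itself was measured first, as a check of the labels. In Hep-G2, IGF2BP1 had 48.5, 46.6 and 50.8 FPKM with siC and 12.6, 10.7 and 10.7 with siI1. IGF2BP1 in BE(2)-C had 21.3, 20.6 and 21.6 FPKM with siC and 4.85, 4.75 and 4.87 with siI1. Every siI1 library of both lines lay below every siC library of its line. IGF2BP1 fell in both lines, with a log2 fold change of -2.10 (SE 0.08, adjusted p = 7.8e-06 from limma) for Hep-G2. For BE(2)-C it was -2.11 (SE 0.05, adjusted p = 1.5e-05). In these bulk samples, fewer cells of a type and less RNA per cell cannot be told apart.

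The line markers were checked as well. All 6 Hep-G2 markers (ALB, AFP, APOA1, TTR, SERPINA1 and HNF4A) had at least 1 FPKM in each Hep-G2 library, while in BE(2)-C their sum was at most 0.228 FPKM, with AFP and HNF4A at 0. The BE(2)-C markers PHOX2A, HAND2, GATA3, DBH and MYCN each had at least 1 FPKM in every BE(2)-C library. In Hep-G2 the highest of them was DBH, at 0.241 FPKM or less, and HAND2 was at 0. The Hep-G2 marker sum, in which ALB was the most abundant gene, was 6952, 7022 and 6910 FPKM with siC and 11500, 13155 and 13313 FPKM with siI1. ALB, APOA1, SERPINA1 and HNF4A were above the siC range in every siI1 library, and AFP and TTR below it. MYCN, the most abundant of the BE(2)-C markers, had 1688, 1620 and 1671 FPKM with siC and 1880, 1855 and 1955 FPKM with siI1. MYCN lay above the siC range in every siI1 library, PHOX2A, HAND2 and DBH below it, and GATA3 overlapped it. The part of these markers in the member results below was not tested.

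In Hep-G2, siI1 library 1 stood apart from siI1 libraries 2 and 3. The mean squared difference of reads per gene, in units of counting error, was 13.8 and 14.3 for its pairs and 1.98 between libraries 2 and 3, against 2.28 to 7.31 for the pairs of libraries within the other 3 groups. The Hep-G2 counts of members and the values of LAMTOR1, LAMTOR2, LAMTOR4, MKNK1, EIF4EBP1 and EIF4EBP2 are also given without it.

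In Hep-G2, 3 of the 8 members not chosen by this contrast were higher with siI1 (LAMTOR1, LAMTOR4 and EIF4EBP2), beside 21.9% of the 19436 tested genes, and 2 were lower (LAMTOR5 and EIF4E), beside 23.0%. The median log2 fold change of these 8 was 0.07, beside 0.01 over all tested genes. In BE(2)-C, 3 of the 8 were lower (LAMTOR2, LAMTOR5 and EIF4EBP1), beside 14.8% of the 18656 tested genes, with 5 at an unadjusted p under 0.05. By limma, 0 of the 8 were higher in BE(2)-C, beside 13.3%, with 0 at an unadjusted p under 0.05 and 0 by voom. Their median was -0.20, beside 0.02 over all tested genes. LAMTOR5 was the 1 member called in the same direction in both lines. Without Hep-G2 siI1 library 1, 3 members were higher and 2 lower in Hep-G2. The count of 2 lower became 1 without Hep-G2 siC library 1, siC library 2, siC library 3 or siI1 library 2, through EIF4E. In BE(2)-C the count of 3 lower became 2 without siI1 library 2 or siI1 library 3 and without the mean-variance trend, through EIF4EBP1. The count of all genes higher in BE(2)-C, 2489, became 1634, 1564 and 1519 without siI1 library 1, 2 and 3. Leaving out any library of BE(2)-C, siC included, lowered that count, to between 1519 and 2103. It also lowered the count of all genes lower in BE(2)-C, from 2763 to between 1895 and 2316.

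Scaling the Hep-G2 libraries to equal sums of FPKM shifted the all-genes median by -0.15 and took the higher genes from 48.8% of calls to 35.5%. Median centring went the other way, by 0.08 and to 57.6%. Changes in Hep-G2 are therefore relative to the authors' scaling.

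**Figure D1:**
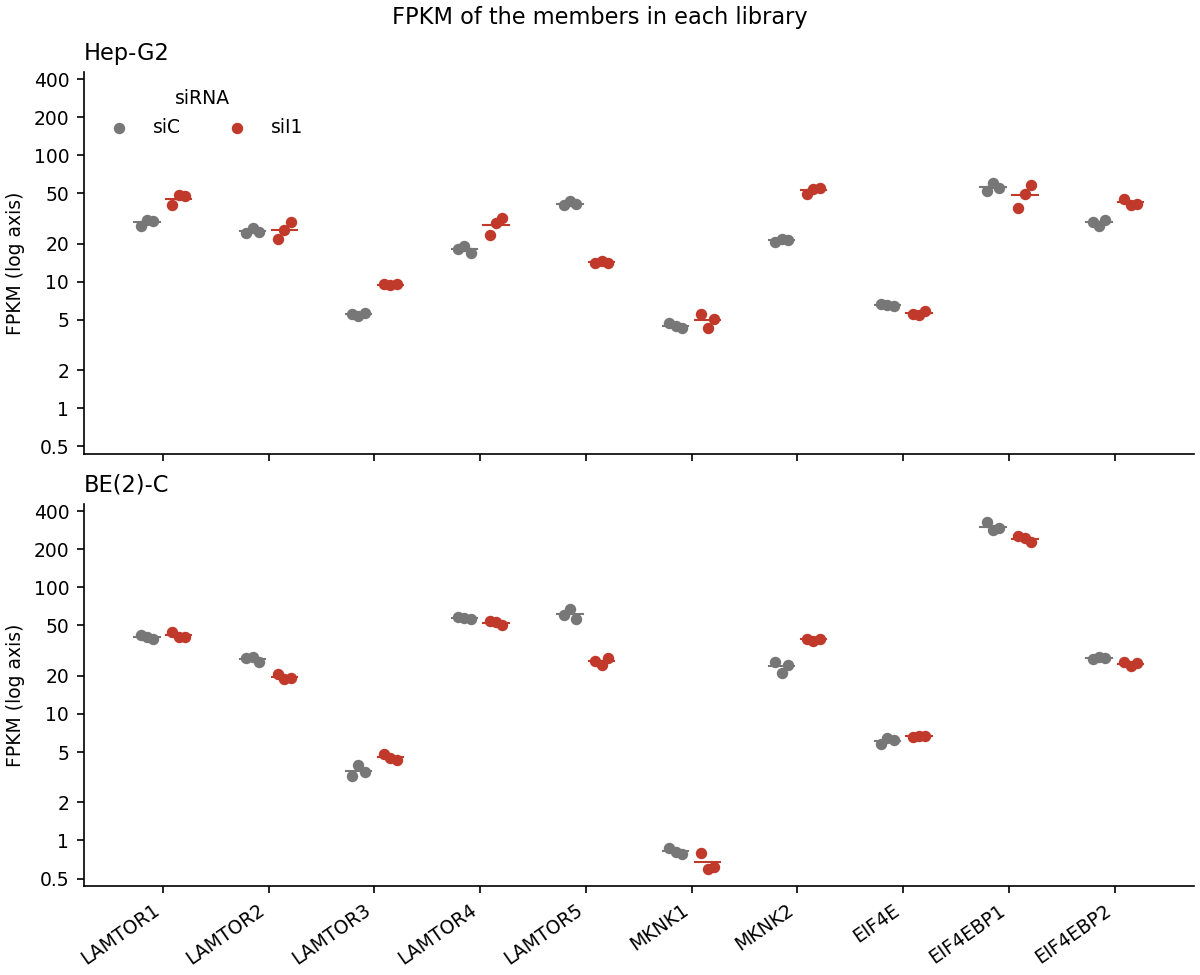
FPKM (log axis) of the 10 members in each of the 12 libraries, siC in grey and siI1 in red, with a line at each group's mean. LAMTOR5 lies lower with siI1 in both lines, from 41.5 to 14.2 in Hep-G2 and from 61.4 to 26.1 in BE(2)-C, and EIF4EBP1 is the most abundant member in BE(2)-C.

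**Figure D2:**
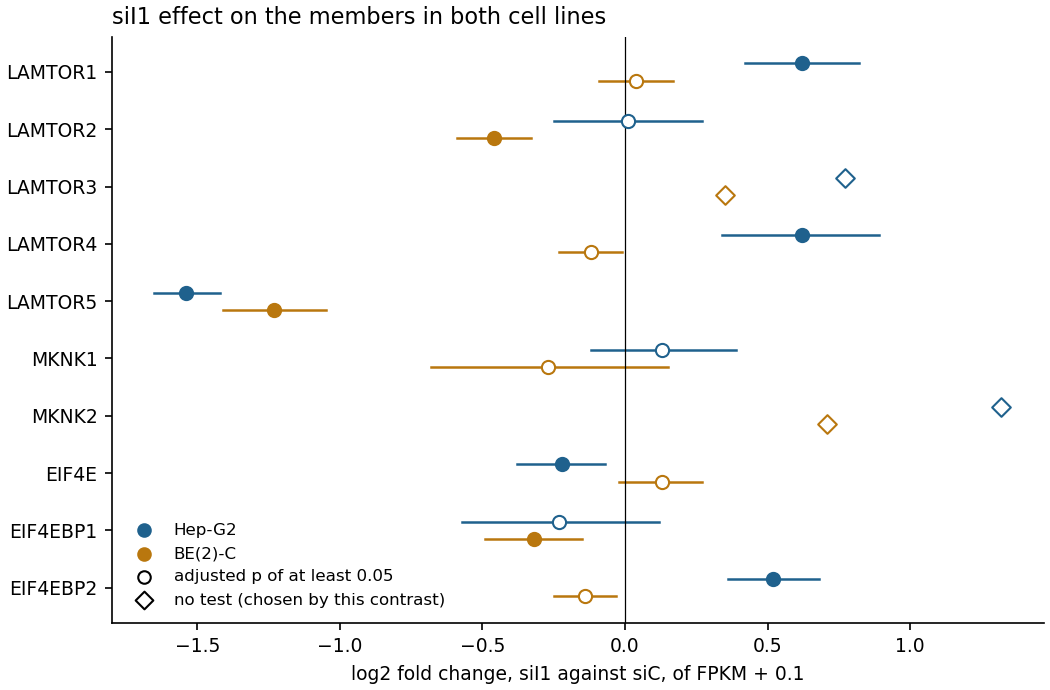
Log2 fold change, siI1 against siC, of FPKM + 0.1, with 95% intervals for the members that were tested, Hep-G2 in blue and BE(2)-C in orange. Filled points passed an adjusted p of 0.05, open points did not, and diamonds mark LAMTOR3 and MKNK2, which were not tested.

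Among the Ragulator subunits, LAMTOR5 (ENSG00000134248, chromosome 1, 110401249 to 110407942 of hg38, minus strand), which pairs with LAMTOR4, fell in both lines. In Hep-G2, LAMTOR5 had 40.2, 43.2 and 40.9 FPKM with siC and 14.2, 14.5 and 14.0 FPKM with siI1. LAMTOR5 in BE(2)-C had 60.8, 67.1 and 56.4 FPKM with siC and 26.2, 24.4 and 27.7 FPKM with siI1. In neither line did the groups overlap, and all siI1 libraries were the low ones. On the log2 scale the fall in Hep-G2 was -1.54 (SE 0.05, adjusted p = 4.4e-06 from limma, 447 to 1492 reads). That in BE(2)-C was -1.23 (SE 0.08, adjusted p = 0.00019, 822 to 2084 reads). The drop was larger in Hep-G2 by a difference of effects of -0.30 (SE 0.09, adjusted p = 0.024, interval -0.51 to -0.10). That difference no longer passed the threshold without Hep-G2 siC library 2, Hep-G2 siI1 library 3, BE(2)-C siC library 3 or BE(2)-C siI1 library 3 (adjusted p of 0.06 at most), nor with median centring or the replicate block (adjusted p of 0.058 at most).

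LAMTOR1 (ENSG00000149357, chromosome 11, 72085895 to 72103297, minus strand) anchors the complex to the lysosomal membrane and wraps around the other subunits. In Hep-G2, LAMTOR1 had 27.5, 30.8 and 30.0 FPKM with siC and 40.2, 48.6 and 47.4 FPKM with siI1. The 3 siI1 libraries were all above the siC libraries. LAMTOR1 rose by 0.62 on the log2 scale (SE 0.09, adjusted p = 0.0013 from limma), and by 0.70 without siI1 library 1, where LAMTOR1 in Hep-G2 had an adjusted p of 0.00025. LAMTOR1 in BE(2)-C had 41.9, 40.5 and 39.4 FPKM with siC and 44.6, 40.2 and 40.4 with siI1. Those groups overlapped, with a log2 fold change of 0.04 (interval -0.09 to 0.17, adjusted p = 0.63), which was -0.01 without siI1 library 1 of BE(2)-C. The effects of the lines differed by 0.58 (SE 0.11, adjusted p = 0.0013).

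LAMTOR4 (ENSG00000188186, chromosome 7, 100148912 to 100155944, plus strand) forms a dimer with LAMTOR5, but rose in Hep-G2, where LAMTOR5 fell. In Hep-G2, LAMTOR4 had 18.1, 19.3 and 17 FPKM with siC and 23.4, 28.9 and 31.8 FPKM with siI1. The groups did not overlap, and siI1 library 1 was the lowest of the siI1 libraries. LAMTOR4 rose by 0.62 on the log2 scale (SE 0.12, adjusted p = 0.0048 from limma). Without siI1 library 1 it was 0.74 for LAMTOR4 in Hep-G2. LAMTOR4 in BE(2)-C had 58.0, 57.6 and 55.9 FPKM with siC and 54.7, 52.8 and 50.2 FPKM with siI1, and every siI1 library was below the siC libraries. The log2 fold change there was -0.12 (interval -0.23 to -0.01) and missed the threshold (adjusted p = 0.09). LAMTOR4 had the largest difference of effects among the subunits that were tested, 0.74 (SE 0.13, adjusted p = 0.001).

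LAMTOR2 (ENSG00000116586, chromosome 1, 156054782 to 156058506, plus strand) forms the other dimer of the complex with LAMTOR3. In Hep-G2, LAMTOR2 had 24.5, 26.8 and 24.9 FPKM with siC and 21.9, 25.8 and 29.5 FPKM with siI1. The groups overlapped, the siI1 libraries spreading on both sides of the siC libraries. The log2 fold change was 0.01 (interval -0.25 to 0.27, adjusted p = 0.95), and LAMTOR2 in Hep-G2 was at -0.16 with equal sums of FPKM, so its sign depends on scaling. It was at 0.12 without siI1 library 1 and at -0.09 without siI1 library 3. LAMTOR2 in BE(2)-C had 27.7, 28.2 and 25.5 FPKM with siC and 20.6, 19.0 and 19.3 FPKM with siI1. All siI1 libraries of BE(2)-C were lower, with a log2 fold change of -0.46 (SE 0.06, adjusted p = 0.0017 from limma). The effects differed between the lines by 0.47 (SE 0.13, adjusted p = 0.013).

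LAMTOR3 (ENSG00000109270, chromosome 4, 99878336 to 99894428, minus strand) is the subunit that binds MEK and ERK. In Hep-G2, LAMTOR3 had 5.59, 5.36 and 5.62 FPKM with siC and 9.55, 9.39 and 9.58 FPKM with siI1. LAMTOR3 in BE(2)-C had 3.25, 3.95 and 3.47 FPKM with siC and 4.85, 4.50 and 4.33 FPKM with siI1. The siI1 libraries were above the siC libraries in both lines, in the contrast by which this gene was chosen. Group means had a ratio of 1.72 in Hep-G2, on 309 to 578 reads, against 1.28 in BE(2)-C, on 197 to 317 reads.

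The promoters of LAMTOR1 and LAMTOR4, which were both higher in Hep-G2, and of LAMTOR5, which was lower, are shown because these subunits belong to the same complex and moved apart. RefSeq (GRCh38.p14) gave 11 windows for 9 of the 10 members, each from 250 bases before to 50 bases after a start. Capitals mark an E-box (CACGTG) or an ETS motif (CCGGAAG), searched on both strands together with the CRE (TGACGTCA). Motifs did not overlap each other.
LAMTOR1, chr11:72103248-72103547, minus strand: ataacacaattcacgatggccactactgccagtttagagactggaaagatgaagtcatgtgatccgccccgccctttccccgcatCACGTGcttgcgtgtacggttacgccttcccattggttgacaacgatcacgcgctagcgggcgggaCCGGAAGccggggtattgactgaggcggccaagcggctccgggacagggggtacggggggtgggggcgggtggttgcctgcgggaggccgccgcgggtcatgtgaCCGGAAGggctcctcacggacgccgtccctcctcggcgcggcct
LAMTOR4, chr7:100148668-100148967, plus strand: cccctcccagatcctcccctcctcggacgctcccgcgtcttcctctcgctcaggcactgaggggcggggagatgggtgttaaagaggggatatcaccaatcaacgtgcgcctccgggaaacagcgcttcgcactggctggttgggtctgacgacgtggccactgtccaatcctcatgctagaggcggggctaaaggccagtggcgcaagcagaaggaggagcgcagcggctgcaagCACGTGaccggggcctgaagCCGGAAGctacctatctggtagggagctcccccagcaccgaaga
LAMTOR5, chr1:110407875-110408174, minus strand: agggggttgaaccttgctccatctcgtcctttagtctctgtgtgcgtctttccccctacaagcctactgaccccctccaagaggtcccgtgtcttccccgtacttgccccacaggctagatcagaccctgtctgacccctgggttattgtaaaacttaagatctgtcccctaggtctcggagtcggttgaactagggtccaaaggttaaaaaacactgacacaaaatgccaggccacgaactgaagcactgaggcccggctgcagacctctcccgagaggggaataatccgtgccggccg
LAMTOR1 held an E-box 165 bases before its start and ETS motifs 99 bases before and 6 bases after it. LAMTOR4 held an E-box 14 bases before its start and an ETS motif 6 bases after it. EIF4E had E-boxes 225 and 72 bases before its start, and EIF4EBP2 an ETS motif 1 base after. The windows of LAMTOR2, LAMTOR3, LAMTOR5, MKNK1 and MKNK2 held none of these letters, and none of the 11 windows held the CRE. EIF4EBP1 had no window. Of 35116 promoters of this length, 7.26% held the E-box, 10.3% the ETS motif and 1.85% the CRE.

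Within the summed FPKM of LAMTOR1 to LAMTOR5, LAMTOR5 took 34.7%, 34.4% and 34.5% with siC in Hep-G2 and 13.0%, 11.4% and 10.6% with siI1. Its share in the siC libraries of BE(2)-C was 31.7%, 34.0% and 31.2%, against 17.4%, 17.3% and 19.5% in the siI1 libraries. Every siI1 library was below the siC libraries. The mean share of LAMTOR1 was 24.5% with siC and 36.9% with siI1 in Hep-G2, against 21.4% and 28.9% in BE(2)-C. For LAMTOR4 the means were 15.1% and 22.7% in Hep-G2, against 30.1% and 36.3% in BE(2)-C. The LAMTOR3 share was the smallest in each group, with means of 4.61% and 7.79% in Hep-G2 and of 1.87% and 3.15% in BE(2)-C. These shares are per length, with the gene lengths of the authors' tables, 4226 nt for LAMTOR3 against 1438 nt for LAMTOR2. In reads, LAMTOR3 had 546, 578 and 541 with siI1 in Hep-G2, beside 426, 540 and 567 for LAMTOR2. The summed FPKM itself overlapped between the groups in Hep-G2 (116, 125 and 119 with siC, 109, 127 and 132 with siI1). The BE(2)-C sum was lower in each siI1 library, at 151, 141 and 142 against 192, 197 and 181. Shares are descriptions without a test, and a lower share of LAMTOR5 raises the shares of the rest.

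**Figure D3:**
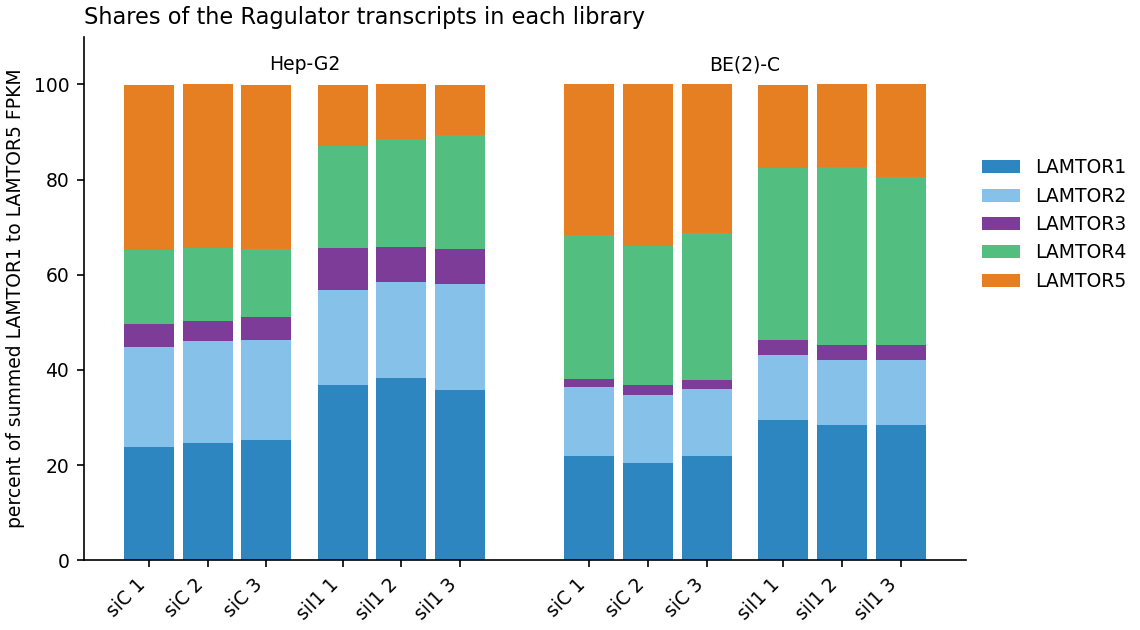
Percent of the summed FPKM of LAMTOR1 to LAMTOR5 that each subunit takes, as stacked bars from 0 for each library. The mean LAMTOR5 share is 34.6% (siC) and 11.7% (siI1) for Hep-G2, against 32.3% and 18.0% for BE(2)-C.

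Genes on the other strand lie across several subunits, and the methods describe strand-specific libraries. The strand setting of the counting is not stated in the sources used, so it is not known whether reads of a gene were kept apart from those of its antisense partner. The genes of the table whose span overlaps a member or whose symbol marks its pseudogene or antisense RNA were 20, of which 6 had enough FPKM to be tested in some line. LAMTOR5-AS1 covers the whole span of LAMTOR5 on the opposite strand. LAMTOR5-AS1 in BE(2)-C had 1.39, 2.18 and 1.45 FPKM with siC and 0.758, 0.697 and 0.649 FPKM with siI1, every siI1 library being lower. Its log2 fold change was -1.12 (SE 0.20, adjusted p = 0.0067 from limma) in BE(2)-C and -0.04 (interval -0.78 to 0.69, adjusted p = 0.92) in Hep-G2. LRTOMT, which overlaps LAMTOR1, and C7orf43, which overlaps LAMTOR4, did not pass the threshold in either line, with adjusted p of 0.18 and 0.75 for LRTOMT and 0.51 and 0.071 for C7orf43.

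The MNK kinases differed in level. In Hep-G2, MKNK2 (ENSG00000099875, chromosome 19, 2037465 to 2051244, minus strand), the kinase with high activity at rest, had 20.8, 21.6 and 21.3 FPKM with siC and 49.8, 54.5 and 54.9 FPKM with siI1. MKNK2 in BE(2)-C had 25.8, 21.1 and 24.5 FPKM with siC and 39.2, 37.8 and 39.3 FPKM with siI1. The siI1 libraries were the high ones in both lines, in the contrast by which the gene was chosen. Group means had a ratio of 2.50 in Hep-G2, against 1.63 in BE(2)-C. MKNK1 (ENSG00000079277, chromosome 1, 46557407 to 46616843, minus strand), which answers to ERK and p38, had 4.70, 4.46 and 4.34 FPKM with siC and 5.53, 4.29 and 5.09 FPKM with siI1 in Hep-G2. These groups overlapped, with a log2 fold change of 0.13 (interval -0.12 to 0.39, adjusted p = 0.36 from limma). With equal sums of FPKM, MKNK1 in Hep-G2 was at -0.03, so its sign depends on scaling, and it was at 0.05 without siI1 library 1 and 0.23 without siI1 library 2. MKNK1 in BE(2)-C had 0.872, 0.812 and 0.780 FPKM with siC and 0.802, 0.596 and 0.616 FPKM with siI1, on 68 to 101 reads. Those groups overlapped too, with a log2 fold change of -0.27 (interval -0.68 to 0.15, adjusted p = 0.32), which was -0.13 with a pseudocount of 1. The difference of effects for MKNK1 was 0.40 (interval -0.01 to 0.80) and missed the threshold (adjusted p = 0.11), but passed it without BE(2)-C siI1 library 1 (adjusted p = 0.036). MOB3C, on the same strand within MKNK1, and MKNK1-AS1 did not pass the threshold where they were tested.

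The Hep-G2 ratio of MKNK2 to MKNK1 FPKM was 4.43, 4.83 and 4.89 in siC libraries, against 9.02, 12.7 and 10.8 in siI1 libraries. For BE(2)-C the ratios were 29.6, 25.9 and 31.5 (siC) against 48.9, 63.4 and 63.8 (siI1). The ratio was higher in every siI1 library of either line, as a description, since MKNK2 was chosen by this contrast.

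Beside MKNK2 lies BTBD2, 2584 nt before its lower end on the same strand. In Hep-G2, BTBD2 had 8.86, 8.80 and 8.70 FPKM with siC and 20.7, 24.8 and 25.3 FPKM with siI1. BTBD2 rose in Hep-G2 (log2 fold change 1.41, SE 0.08, adjusted p = 3.4e-05 from limma) as well as in BE(2)-C (0.45, SE 0.08, adjusted p = 0.0084), with no overlap of groups in either line. MOB3A, 19792 nt past the other end, rose in Hep-G2 (0.27, SE 0.07, adjusted p = 0.021) and had a log2 fold change of -0.21 in BE(2)-C (interval -0.44 to 0.02, adjusted p = 0.16). Beside LAMTOR3, DNAJB14 (1820 nt away) fell in Hep-G2, where LAMTOR3 was higher, with 4.83, 4.21 and 4.64 FPKM with siC and 2.60, 1.84 and 1.82 FPKM with siI1 (log2 fold change -1.11, SE 0.15, adjusted p = 0.0013). DNAJB14 in BE(2)-C had a log2 fold change of 0.05 (interval -0.28 to 0.37, adjusted p = 0.84). DAPP1, 8146 nt on the other side of LAMTOR3, had at most 2 reads in any library.

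Over the 12 libraries, each centred on its cell line, the protein-coding genes most like LAMTOR3 among 11083 were RAB40B (r = 0.990), HSDL2 (r = 0.990) and ICMT (r = 0.984). Those most like MKNK2 were DMPK (r = 0.994), CASC10 (r = 0.993) and MIB2 (r = 0.991). LAMTOR3 and MKNK2 had r = 0.942 with each other. These correlations share the siRNA contrast and the libraries, so they only describe the pattern, with no test. RAB40B had group means of 1.96 (siC) and 6.06 FPKM (siI1) for Hep-G2 and of 1.90 and 3.28 FPKM for BE(2)-C. DMPK had 1.71 and 4.79 FPKM for Hep-G2 and 3.06 and 5.36 FPKM for BE(2)-C.

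EIF4E (ENSG00000151247, chromosome 4, 98879276 to 98929133, minus strand) binds the mRNA cap. In Hep-G2, EIF4E had 6.71, 6.58 and 6.48 FPKM with siC and 5.57, 5.46 and 5.88 FPKM with siI1. All siI1 libraries were below the siC libraries. EIF4E fell by 0.22 on the log2 scale (SE 0.06, adjusted p = 0.028 from limma), a small change on 1059 to 1465 reads. The call for EIF4E in Hep-G2 ended without siC library 1, siC library 2, siC library 3 or siI1 library 2 (adjusted p of 0.096 at most), with median centring (adjusted p = 0.14) and with the replicate block (adjusted p = 0.053). EIF4E in BE(2)-C had 5.76, 6.40 and 6.19 FPKM with siC and 6.62, 6.72 and 6.70 FPKM with siI1. The siI1 libraries were above the siC libraries, but the log2 fold change of 0.13 (interval -0.02 to 0.27) missed the threshold (adjusted p = 0.18). The effects differed between the lines by -0.35 (SE 0.08, adjusted p = 0.006). EIF4EP2, a pseudogene of EIF4E on chromosome 17, had 17.2, 17.2 and 17.3 FPKM with siC in Hep-G2 and a log2 fold change of -0.54 (SE 0.12, adjusted p = 0.01) there and of 0.19 (adjusted p = 0.14) in BE(2)-C, on 84 to 219 reads. Reads shared between EIF4E and EIF4EP2 cannot be told apart from these tables.

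EIF4EBP2 (ENSG00000148730, chromosome 10, 70404145 to 70428618, plus strand), an inhibitor of EIF4E, rose in Hep-G2. There it had 29.6, 27.8 and 30.9 FPKM with siC and 45.5, 40.4 and 41.1 FPKM with siI1. The groups did not overlap. EIF4EBP2 rose by 0.52 on the log2 scale (SE 0.07, adjusted p = 0.00092 from limma), and without siI1 library 1 it was 0.47 for EIF4EBP2 in Hep-G2. EIF4EBP2 in BE(2)-C had 27.0, 28.3 and 27.5 FPKM with siC and 25.9, 24.0 and 25.1 FPKM with siI1. Each siI1 library was below the siC libraries, but the log2 fold change of -0.14 (interval -0.25 to -0.03) missed the threshold (adjusted p = 0.058). EIF4EBP2 had a difference of effects of 0.66 (SE 0.08, adjusted p = 8.6e-05).

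EIF4EBP1 (ENSG00000187840, chromosome 8, 38030534 to 38060365, plus strand) is the related inhibitor. In Hep-G2, EIF4EBP1 had 52.3, 60.7 and 55.4 FPKM with siC and 38.4, 49.4 and 57.7 FPKM with siI1. The groups overlapped, siI1 library 1 being the lowest and siI1 library 3 lying among the siC libraries. The log2 fold change was -0.23 (interval -0.57 to 0.12, adjusted p = 0.25 from limma). EIF4EBP1 in Hep-G2 was at -0.07 without siI1 library 1 and at -0.36 without siI1 library 3 (adjusted p = 0.068), and it passed the threshold with equal sums of FPKM, at -0.39 (adjusted p = 0.025). EIF4EBP1 in BE(2)-C had 330.2, 283 and 295 FPKM with siC and 253, 244 and 228 FPKM with siI1, and every siI1 library was lower. EIF4EBP1 fell there by 0.32 on the log2 scale (SE 0.07, adjusted p = 0.016). The call in BE(2)-C ended without siI1 library 2 or siI1 library 3 (adjusted p of 0.063 at most) and without the mean-variance trend (adjusted p = 0.052). The effects of the lines differed by 0.10 (interval -0.29 to 0.48, adjusted p = 0.7), a sign that depends on scaling and on single libraries.

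Per length, the EIF4EBP1 to EIF4EBP2 ratio in Hep-G2 was 1.77, 2.19 and 1.79 (siC) against 0.844, 1.22 and 1.40 (siI1). Every siI1 library had the lower ratio in Hep-G2, while in BE(2)-C the groups overlapped (10.0 to 12.3 with siC, 9.08 to 10.2 with siI1). The summed FPKM of EIF4EBP1 and EIF4EBP2 over that of EIF4E went from a mean of 13.0 with siC to 16.1 with siI1 in Hep-G2, all siI1 libraries being higher. For BE(2)-C this ratio went from 54.2 to 39.9, all siI1 libraries being lower. These ratios of RNA levels were not tested.

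The members also differed in level within each group, compared here per length with the gene lengths of the authors' tables. In Hep-G2 with siC, EIF4EBP1 was the highest at a mean of 56.1 FPKM, then LAMTOR5 at 41.5. LAMTOR1 and EIF4EBP2 followed, both at 29.4 with overlapping libraries, and then LAMTOR2 at 25.4, MKNK2 at 21.2 and LAMTOR4 at 18.1. EIF4E (6.59), LAMTOR3 (5.52) and MKNK1 (4.50) were the lowest, each apart from its neighbours. With siI1 in Hep-G2, MKNK2 (53.1), EIF4EBP1 (48.5), LAMTOR1 (45.4) and EIF4EBP2 (42.3) had the highest means, and each overlapped its neighbour among them. LAMTOR5 had moved to rank 7 (14.2 FPKM), below LAMTOR4 and LAMTOR2. In BE(2)-C, EIF4EBP1 was the highest in both groups (303 with siC, 242 with siI1) and MKNK1 the lowest (0.821 and 0.671). LAMTOR5 (61.4) and LAMTOR4 (57.2) overlapped with siC, whereas with siI1 LAMTOR4 (52.6) was second and LAMTOR5 (26.1) overlapped EIF4EBP2 (25.0). The tables of the lines were normalized separately, so levels of a member in Hep-G2 and BE(2)-C are not compared.

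The effect differed between the lines for 6 of the 8 members tested, beside 40.2% of the 15362 genes tested in both. EIF4E and LAMTOR5 had the lower effect in Hep-G2, and LAMTOR1, LAMTOR2, LAMTOR4 and EIF4EBP2 the higher.

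The genes around these members were read from 5 lists of 68 genes. In Hep-G2, 18 of the 65 tested list genes were higher and 20 lower, beside 21.9% and 23.0% of all tested genes. For BE(2)-C, 13 of 66 were higher and 12 lower, beside 13.3% and 14.8%. The 20 lower in Hep-G2 became 13 without siC library 1, siC library 3 or siI1 library 2 and with median centring, and the 18 higher became 11 with equal sums of FPKM. The 13 higher in BE(2)-C became 7 without siI1 library 2 or siI1 library 3, and the 12 lower became 7 without siI1 library 2. The effect differed between the lines for 27 of 65 list genes, beside 40.2% of all genes tested in both. CASTOR1 and EIF4E1B were not tested in either line, nor EIF4E3 in Hep-G2.

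**Figure D4:**
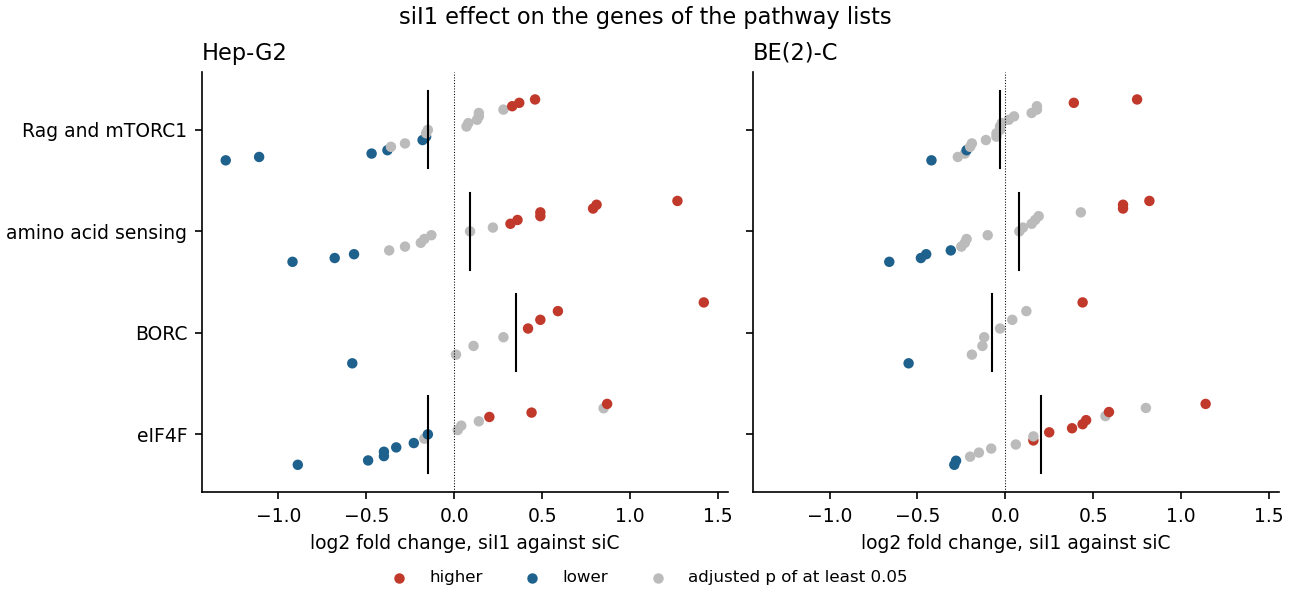
Log2 fold change, siI1 against siC, of each tested gene of 4 of the lists in Hep-G2 and BE(2)-C, red for higher and blue for lower at an adjusted p under 0.05, with a black line at the list median. Of these 4, BORC has the highest median in Hep-G2 (0.35) and eIF4F in BE(2)-C (0.21). The list of kinases upstream of the MNK kinases is not plotted.

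The Rag and mTORC1 list holds the Rag GTPases that Ragulator anchors, mTORC1 and its regulators. In Hep-G2, 3 of 19 were higher and 6 lower, beside 21.9% and 23.0% of all tested genes, with a median of -0.15 beside 0.01. With equal sums of FPKM 1 was higher and the median was -0.32, and with median centring the median was -0.06. Without siI1 library 1 the Hep-G2 median was -0.08. The BE(2)-C counts were 2 higher and 2 lower, beside 13.3% and 14.8%, with a median of -0.03 beside 0.02, which became 0.01 with median centring and -0.06 without siC library 2 or siC library 3 (median of Rag and mTORC1 genes in BE(2)-C). The 6 lower in Hep-G2 became 3 without siC library 1, siC library 3 or siI1 library 3, and with median centring or no trend. In BE(2)-C, the 2 higher became 1 without siC library 3 or any siI1 library, and the 2 lower became 1 without siC library 2, siC library 3, siI1 library 2 or siI1 library 3. Among other settings, the replicate block gave 1 higher, while 1 was lower with no filter, median centring or the block and 4 by voom. FNIP2, a partner of the folliculin GTPase activator, had 3.95, 3.17 and 4.11 FPKM with siC and 1.64, 1.38 and 1.36 FPKM with siI1 in Hep-G2. FNIP2 fell there (log2 fold change -1.30, SE 0.14, adjusted p = 0.00043 from limma), and the effects of the lines differed (-1.48, SE 0.17, adjusted p = 4.8e-05). RPS6KB2, an S6 kinase downstream of mTORC1, rose in Hep-G2 (0.46, adjusted p = 0.0088) and fell in BE(2)-C (-0.42, adjusted p = 0.012), a difference of 0.88 (adjusted p = 0.00047). TSC2, an inhibitor of mTORC1, rose in Hep-G2 (0.33, adjusted p = 0.0072), but not past the threshold with equal sums of FPKM (adjusted p = 0.15). RRAGB, a Rag GTPase, fell in Hep-G2 (-0.47, adjusted p = 0.0049).

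Of the mTORC1 genes named for BE(2)-C, DEPTOR, an mTOR inhibitor, had 7.07, 6.93 and 8.48 FPKM with siC and 13.2, 12.2 and 12.4 FPKM with siI1. DEPTOR rose (log2 fold change 0.75, SE 0.09, adjusted p = 0.0013 from limma) with no overlap of the groups, and in Hep-G2 it had 13 to 39 reads and an adjusted p of 0.55. FNIP1 rose in BE(2)-C (0.39, adjusted p = 0.021), a call that ended without siC library 3, siI1 library 1, siI1 library 2 or siI1 library 3 (adjusted p of 0.072 at most) and with the replicate block. FNIP1 was at -0.36 in Hep-G2 (adjusted p = 0.089), which passed the threshold without siI1 library 1 (adjusted p = 0.0028) and by voom (adjusted p = 0.028). The FNIP1 effects differed by -0.76 (adjusted p = 0.0054). RHEB, the GTPase that activates mTORC1, was lower in Hep-G2 (-0.18, adjusted p = 0.029) and BE(2)-C (-0.22, adjusted p = 0.032). The Hep-G2 call of RHEB ended without siC library 1, siC library 2, siC library 3 or siI1 library 3 (adjusted p of 0.094 at most), and with median centring, voom or no trend (0.24 at most). The BE(2)-C call ended without siC library 2, siC library 3, siI1 library 2 or siI1 library 3 (adjusted p of 0.11 at most), and with no filter, no trend, median centring or the replicate block (0.099 at most).

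Amino acid sensing genes, which report leucine, arginine and methionine to the Rag GTPases, had 7 higher and 3 lower of 17 in Hep-G2, beside 21.9% and 23.0% of all tested genes. Of the 17 in BE(2)-C, 3 were higher and 4 lower, beside 13.3% and 14.8%. Their median was 0.09 in Hep-G2 beside 0.01 over all tested genes, and 0.08 in BE(2)-C beside 0.02. The Hep-G2 median became -0.11 without siC library 2, -0.19 without siI1 library 1 and -0.07 with equal sums of FPKM, where 3 genes were higher and 5 lower. It was 0.18 or more without siC library 1, siC library 3 or siI1 library 3 and with median centring (median of amino acid sensing genes in Hep-G2). The median of amino acid sensing genes in BE(2)-C became -0.01 with an FPKM filter of 1, 0.045 without siC library 1 and 0.05 without siC library 2. The medians of this list thus depend on single libraries and on the filter. In Hep-G2, SESN1, a sestrin, had 8.12, 6.98 and 7.47 FPKM with siC and 20.1, 17.2 and 17.4 FPKM with siI1. SESN1 rose in both lines, by 1.27 (SE 0.09, adjusted p = 6.1e-05 from limma) in the former and by 0.67 in BE(2)-C (SE 0.12, adjusted p = 0.007), a difference of 0.60 (adjusted p = 0.0079) that did not pass with equal sums of FPKM (adjusted p = 0.073). SESN3 rose in both lines as well (0.81 and 0.67, adjusted p = 0.0048 and 0.0045). SESN2 fell in Hep-G2 (-0.68, adjusted p = 0.00045) and had -0.22 in BE(2)-C (adjusted p = 0.05, and 0.036 with an FPKM filter of 1), a difference of -0.47 (adjusted p = 0.0032).

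In the same list, SEC13, a shell protein of GATOR complexes and of vesicle coats, fell in Hep-G2 (-0.57, adjusted p = 0.00034) and BE(2)-C (-0.45, adjusted p = 0.0026). KPTN, of the KICSTOR complex, rose in Hep-G2 (0.79, adjusted p = 0.00033) and had a log2 fold change of 0.19 in BE(2)-C (adjusted p = 0.062), which passed the threshold without siC library 1 (adjusted p = 0.013). It also passed with an FPKM filter of 1, median centring or equal sums of FPKM (0.03 at least). KPTN effects differed by 0.59 (adjusted p = 0.00092). WDR24 fell in BE(2)-C (-0.48, adjusted p = 0.0014) and had -0.37 in Hep-G2 (adjusted p = 0.079), where it passed with equal sums of FPKM (adjusted p = 0.021).

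BORC positions lysosomes through kinesin and is bound by Ragulator. In Hep-G2, 4 of the 8 BORC genes were higher and 1 lower, beside 21.9% and 23.0% of all tested genes, with a median of 0.35 beside 0.01. With equal sums of FPKM the median was 0.19 and 2 were lower. Of the 8 in BE(2)-C, 1 was higher and 1 lower, beside 13.3% and 14.8%, with a median of -0.08 beside 0.02, which was -0.04 without siC library 3 or with median centring. In Hep-G2, BORCS6 had 5.73, 7.44 and 6.53 FPKM with siC and 16.5, 18.0 and 18.6 FPKM with siI1. BORCS6 rose (1.42, SE 0.10, adjusted p = 7.6e-05 from limma) with no overlap of groups, and had -0.13 in BE(2)-C (adjusted p = 0.27), a difference of 1.55 (adjusted p = 7.2e-06). SNAPIN rose in Hep-G2 (0.59, adjusted p = 0.00038), a difference of 0.78 from BE(2)-C (adjusted p = 0.0001). BORCS7 rose in Hep-G2 (0.42, adjusted p = 0.0017) and in BE(2)-C (0.44, adjusted p = 0.02), a call that ended without siC library 1, siI1 library 2 or siI1 library 3 of BE(2)-C (adjusted p of 0.063 at most), leaving 0 higher. BORCS5 was lower in Hep-G2 (-0.58, adjusted p = 0.023), but not without siC library 1 or siI1 library 2 (adjusted p of 0.085 at most, 0 genes lower). BLOC1S1 was lower in BE(2)-C (-0.55, adjusted p = 0.04), but not without siC library 1, siC library 2, siC library 3, siI1 library 1 or siI1 library 2 (adjusted p of 0.11 at most, 0 genes lower), nor with no filter, no trend or median centring (0.082 at most). In Hep-G2, BLOC1S1 had 0.11 (adjusted p = 0.68) and passed as higher without siI1 library 1 (adjusted p = 0.013), and the difference of 0.66 (adjusted p = 0.08) passed without Hep-G2 siI1 library 1 (adjusted p = 0.0045) or BE(2)-C siI1 library 3, and by voom or with the replicate block (0.036 at least).

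The eIF4F list holds helicase, scaffold and cap-binding factors and also inhibitors, such as PDCD4 and EIF4EBP3. Its counts and medians therefore pool genes of opposing roles. In Hep-G2, 3 of 15 were higher and 7 lower, beside 21.9% and 23.0% of all tested genes, with a median of -0.15 beside 0.01. Of the 16 in BE(2)-C, 7 were higher and 2 lower, beside 13.3% and 14.8%, with a median of 0.21 beside 0.02. The Hep-G2 median was -0.31 with equal sums of FPKM and -0.06 with median centring, where 3 were lower, and 4 were lower with no trend. With no filter the median of eIF4F genes in Hep-G2 was -0.07. The 7 lower in Hep-G2 became 4 without siC library 1, siC library 2 or siI1 library 3, and 3 without siC library 3 or siI1 library 2. Without siI1 library 2 or siI1 library 3 of BE(2)-C, 4 were higher and 1 was lower, while 1 was lower with no trend and 4 by voom. PDCD4, an inhibitor of the helicase EIF4A, rose in both lines. In Hep-G2, PDCD4 had 25.1, 22.4 and 22.1 FPKM with siC and 43.5, 42.7 and 41.3 FPKM with siI1. PDCD4 in BE(2)-C had 12, 13.5 and 12 FPKM with siC and 29.0, 26.6 and 27.5 FPKM with siI1. No groups overlapped in PDCD4. Its log2 fold change was 0.8738 (SE 0.06, adjusted p = 7.3e-05 from limma) in the former and 1.142 (SE 0.06, adjusted p = 0.00015) in the latter, a difference of -0.2679 (adjusted p = 0.036). That difference of PDCD4 did not pass without Hep-G2 siC library 1, siI1 library 2 or siI1 library 3, nor without BE(2)-C siC library 1, siC library 3, siI1 library 1 or siI1 library 3 (adjusted p of 0.086 at most), nor with median centring or without the trend (0.084 at most).

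Other eIF4F genes were named by the same rule. PABPC1, the poly-A binding protein, rose in both lines (limma: 0.44, adjusted p = 0.0013 for Hep-G2, then 0.59, adjusted p = 0.00023). EIF4G1, the scaffold that EIF4E binds, fell in Hep-G2 (-0.49, adjusted p = 0.00056) and had -0.15 in BE(2)-C (adjusted p = 0.055, passing with an FPKM filter of 1, equal sums of FPKM or voom, at 0.013 at least), a difference of -0.35 (adjusted p = 0.0029). EIF4E2, a cap-binding relative of EIF4E, fell in Hep-G2 (-0.33, adjusted p = 0.0027) and in BE(2)-C (-0.28, adjusted p = 0.017), the latter not without siI1 library 2 or siI1 library 3 (adjusted p of 0.065 at most) and not without the trend (0.058). EIF4H, a cofactor of the helicase, fell in BE(2)-C (-0.29, adjusted p = 0.0036) and was lower in Hep-G2 (-0.15, adjusted p = 0.043). The Hep-G2 call of EIF4H ended without siC library 1, siC library 2, siC library 3, siI1 library 2 or siI1 library 3 (adjusted p of 0.17 at most), and with no filter, no trend, median centring or voom (0.38 at most).

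The list of 6 kinases that act upstream of the MNK kinases is described by named genes only, without counts or a median. Not every gene of that list is reported here. MAPK14, a p38 kinase, fell in Hep-G2 (-0.99, limma adjusted p = 0.0001) and BE(2)-C (-0.37, adjusted p = 0.0033), a difference of -0.62 (adjusted p = 0.0004). MAP2K1, a MEK, fell in Hep-G2 (-0.79, adjusted p = 9e-05) and was lower in BE(2)-C (-0.17, adjusted p = 0.024), but not without siC library 2, siC library 3, siI1 library 1, siI1 library 2 or siI1 library 3 of BE(2)-C (adjusted p of 0.088 at most), nor with median centring, equal sums of FPKM or no trend (0.09 at most). MAPK3, an ERK, rose in Hep-G2 (0.81, adjusted p = 0.00019) and had -0.13 in BE(2)-C (adjusted p = 0.31), a difference of 0.94 (adjusted p = 8.8e-05).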

How the data were processed

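The study sequenced poly-A RNA in 12 libraries, 3 for each siRNA in Hep-G2 and in BE(2)-C cells. According to the submitters' notes and the study's methods, the authors trimmed reads with Cutadapt 1.14, aligned them to hg38 with HISAT2 2.1.0, processed alignments with SAMtools 1.5, counted them per gene of the Ensembl annotation with featureCounts 1.5.3 and used edgeR 3.30.3 with TMM. The authors deposited a table per cell line with an FPKM value of each gene in each library. Its header names no unit, and FPKM was inferred from the values, since the FPKM of every nonzero gene times its length fell on whole multiples of a step, within 0.01. The recovered reads per gene give the depth, 12852988 to 15721210 reads per library. Libraries were strand-specific by the methods, but the strand setting of the counting is not given in the sources used here. The 37 mitochondrial genes are listed at 0 in every library. The authors' own fold change, p-value and FDR columns were not used.

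Each table was fitted on its own with limma 3.58.1 in R 4.3.3, on log2(FPKM + 0.1) with a mean-variance trend, for genes reaching 0.1 FPKM in 3 or more of its 6 libraries. P-values were adjusted by Benjamini-Hochberg over all tested genes, with a threshold of 0.05. Differences between the lines are interaction terms of a limma fit over 12 libraries for genes tested in both. The fits were tested on simulated data. The members and lists were chosen with earlier results of these data known. Named are all members, IGF2BP1, for each list and line the 2 called genes with the smallest p-value in each direction, genes overlapping or copying a member, the nearest gene on each side of LAMTOR3 and MKNK2, and the 3 protein-coding genes most correlated with each of these. Some list genes and markers are not reported here. LAMTOR3 and MKNK2 were not tested. Coordinates are from GENCODE 44, on the same genome build as the tables but another annotation release, and promoters from RefSeq. Alternatives were pseudocounts of 0.01 and 1, no filter, an FPKM filter of 1, no trend, median centring, equal sums of FPKM, voom on recovered reads, the replicate number as a block and leaving out each library. Scripts ran in Python 3.11.15 with pandas 2.3.3 and NumPy 2.4.6, Matplotlib 3.10.9 drew the plots, and the R package data.table (1.17.8) read the tables.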

Additional observations from a re-analysis of the deposited data

Results flagged for a closer look

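The siI1 effect differed between the cell lines, by the interaction term of limma, for 6 of the 8 tested members and for 14 of the 27 named list genes, beside 40.2% of all genes tested in both lines. The named genes were picked by small p-values in a line, and over all tested list genes the count was 27 of 65. Values are the log2 fold change in Hep-G2 minus that in BE(2)-C. Among the members, the difference was 0.58 for LAMTOR1, 0.47 for LAMTOR2, 0.74 for LAMTOR4, -0.30 for LAMTOR5, -0.35 for EIF4E and 0.66 for EIF4EBP2. Among the Rag and mTORC1 genes it was 0.44 for TSC2, 0.88 for RPS6KB2, -1.48 for FNIP2 and -0.76 for FNIP1. Among the amino acid sensing genes it was 0.60 for SESN1, 0.59 for KPTN and -0.47 for SESN2. BORCS6 differed by 1.55 and SNAPIN by 0.78. PDCD4 differed by -0.27 and EIF4G1 by -0.35. MAPK3 differed by 0.94, MAP2K1 by -0.62 and MAPK14 by -0.62. Causes of these differences were not tested.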

How the results depend on the processing

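IGF2BP1, LAMTOR1, LAMTOR4, LAMTOR5 and EIF4EBP2 in Hep-G2 and IGF2BP1, LAMTOR2 and LAMTOR5 in BE(2)-C had the same direction and passed the threshold in each alternative run. With median centring, 1 member was lower in Hep-G2 and 13 list genes were lower there, and with equal sums of FPKM 11 list genes were higher there. With the replicate number as a block, 1 member was lower in Hep-G2. To check such a block, siC and siI1 libraries sharing a number were compared in their deviations from the group mean, whose correlations across genes were 0.06, 0.04 and -0.01 (Hep-G2), and 0.02, -0.01 and 0 (BE(2)-C). Leaving out each library in turn, 1 to 2 members were lower in Hep-G2 and 2 to 3 in BE(2)-C. Of the list genes, 13 to 23 were lower in Hep-G2, and 7 to 12 were higher and 7 to 11 lower in BE(2)-C. Of all genes, 1519 to 2103 were higher in BE(2)-C. For the changed counts, the cause was not tested. MKNK1 in BE(2)-C, on 68 to 101 reads, had no value with an FPKM filter of 1. Whether depth set the width of its interval was not tested. Replicates of 3 libraries limit each test.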
